A study of Mus musculus with 6 samples.

Results

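V1/V2b/Tenm2 neurons are an inhibitory neuron subtype of the mouse spinal cord, named in the deposited annotation after the ventral interneuron classes V1 and V2b and the adhesion gene Tenm2. Its members are the nuclei whose major cell type is neuron and whose subtype is V1/V2b/Tenm2 in that annotation. The rule gave 193 nuclei of 6035 neurons and of 18514 nuclei in all. The mice were wild-type C57BL/6 animals whose legs no longer moved after a severe thoracic contusion. In the TESS group (3 samples) they were put on a treadmill for 30 min under targeted epidural electrical stimulation, and in the CON group (3 samples, labelled paralyzed) for 30 min with no stimulation. According to the series text, agonists of 5-HT1a, a serotonin receptor, and of D1, a dopamine receptor, were present when TESS enabled walking; it leaves unclear if CON mice had them too. The samples are labelled as lumbar cord, although their extraction protocol speaks of the thoracic lesion. Nothing in the labels ties a sample to an animal of its own, and p-values therefore measure only the spread between these samples, which may be technical.

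V1 and V2b interneurons are inhibitory cells of the ventral horn, marked during development by the transcription factor genes En1 for V1 and Gata2 and Gata3 for V2b. They release glycine, GABA or both onto motor neurons and other interneurons, and are known for setting the speed of locomotion and the alternation of flexor and extensor muscles. Glycine is gathered at the terminal by the transporter GlyT2, encoded by Slc6a5, and packed into vesicles with GABA by the transporter VIAAT, encoded by Slc32a1. Teneurin-2, the product of Tenm2, is a transmembrane protein that binds latrophilins across the synapse.

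The table gives counts of UMIs (unique molecular identifiers, 1 per captured RNA molecule), from 10x version 2 libraries loaded with 5000 nuclei each. V1/V2b/Tenm2 held 29, 37 and 28 nuclei with 84786, 80019 and 66913 UMIs in TESS 1 to 3, against 31, 34 and 34 nuclei with 106163, 117794 and 87283 UMIs in CON 1 to 3. The median nucleus of the subtype had 2199 to 2709 UMIs in TESS samples and 2574.5 to 3119.5 in CON samples, with group means of 2434 in TESS and 2905 in CON (two-sided exact permutation p = 0.2). TESS 1, CON 1 and CON 2 carry batch number 3, and TESS 2, TESS 3 and CON 3 are alone in batches 2, 1 and 4. Within the subtype, the chi-square per degree of freedom between the counts of 2 samples, which is 1 under counting noise alone, was 1.31 to 1.74 for a TESS and a CON sample and 1.25 to 1.76 inside a group. Among all nuclei, 411 carry a barcode that also occurs in another library, 6 of them in this subtype, and no such pair lay inside it.

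The transmitter genes were those of inhibitory neurons, with the glycine transporter gene in most nuclei. Slc6a5 was found in 136 of 193 nuclei (70.5%, 95% exact binomial interval 63.5% to 76.8%), against 17.3% of all other neurons and 1.13% of oligodendrocytes, which should lack it. The median depths were 2603, 1659 and 433 UMIs, and at 1000 UMIs per nucleus the share was 39.4% in V1/V2b/Tenm2 and 11.8% in the other neurons. These intervals cover counting error only. Slc32a1 was found in 57.0% of V1/V2b/Tenm2 nuclei and 20.1% of the other neurons. Of the 193 nuclei, 164 held a UMI of Slc6a5 or Slc32a1 and 82 held both. Adding Gad1 and Gad2, which encode the enzymes that make GABA, brought the count to 170 nuclei (88.1%). The remaining 23 had a median of 2226 UMIs.

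Gad1, given as a marker of these cells, was sparse. It gave 20 UMIs in 19 nuclei (9.84%), against 7.48% of the other neurons and 1.05% of oligodendrocytes. Its level was below that of the other neurons in 5 of 6 samples, with a ratio of mean levels of 0.74. Levels here are CPM, a gene's share of all UMIs of the summed nuclei scaled to 1e+06, compared for the same gene between cells. Gad2 gave 46 UMIs in 37 nuclei and was above the other neurons in 3 of 6 samples. Both GABA enzyme genes were lower than in V1/V2b/Stmn3, another inhibitory subtype with V1/V2b in its name, at ratios of 0.37 for Gad1 and 0.48 for Gad2, and higher than in V1/Adam23, at 1.82 and 2.66. The excitatory transporter gene Slc17a6 gave 3 UMIs in 3 nuclei, and the acetylcholine-synthesis gene Chat gave none, which allows a share of up to 1.55% of nuclei with a UMI.

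The genes that define the lineages in the name were at or near 0. En1, the defining gene of V1 cells, gave 2 UMIs in the 193 nuclei. For V2b cells Gata2 and Gata3 gave none and Tal1 gave 1. Foxp2, a listed gene of a later V1 clade, was found in 11 nuclei, and 12 of 17 V1 genes were detected with 163 UMIs in all. The V1 genes summed to 300.2 CPM in V1/V2b/Tenm2 and 415 CPM in the other neurons, and Foxp2 had a level ratio of 0.69. Pax2, a transcription factor gene shared by many inhibitory lineages, was found in 57 nuclei (29.5%) against 10.1% of the other neurons. The inhibitory identity in the label is thus measured in these nuclei, while the V1 and V2b lineage in its name was not detectable from the defining genes at this depth.

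**Figure D1:**
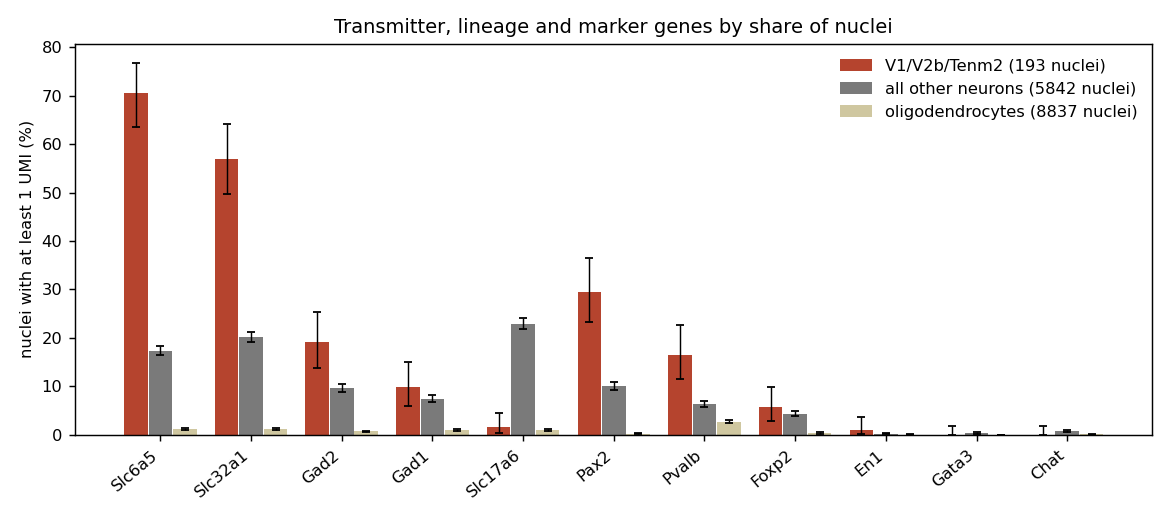
Share of nuclei with at least 1 UMI of each gene (percent, vertical axis) in V1/V2b/Tenm2, all other neurons and oligodendrocytes, with exact 95% binomial intervals as bars. Slc6a5 (70.5%) and Slc32a1 (57.0%) stand highest in V1/V2b/Tenm2, Gad1 reaches 9.84%, and En1, Gata3 and Chat are at or near 0.

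Tenm2 was found in 192 of the 193 nuclei, but it was not particular to the subtype. Its level was 4682, 3874 and 3751 CPM in TESS samples and 3570, 4270 and 3850 CPM in CON samples, against 2443 to 2820 CPM in the other neurons of the same samples. All 6 values lay above those of the other neurons, and TESS and CON values overlapped. Among the 38 neuron subtypes V1/V2b/Tenm2 ranked 4 for Tenm2, with 4008 CPM over its summed nuclei. Nxph1-/Adamts5 (7879 CPM), Nrgn/Rora-I (6149 CPM) and Lxh1/Nxph1 (4962 CPM) stood higher, and the excitatory subtype Pdyn (3988 CPM) was next below, by less than the spread over samples. For Slc6a5 it ranked 2, with 678 CPM, after Spp1 (881 CPM) and before Crabp1 (569 CPM) and V1/Adam23 (548 CPM). The SD of Slc6a5 in V1/V2b/Tenm2 over all 6 samples, TESS and CON together, was 439 CPM, and these neighbours in the order do not differ beyond it. This SD includes TESS 2 at 1562 CPM, and over the CON samples alone it was 117 CPM.

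**Figure D2:**
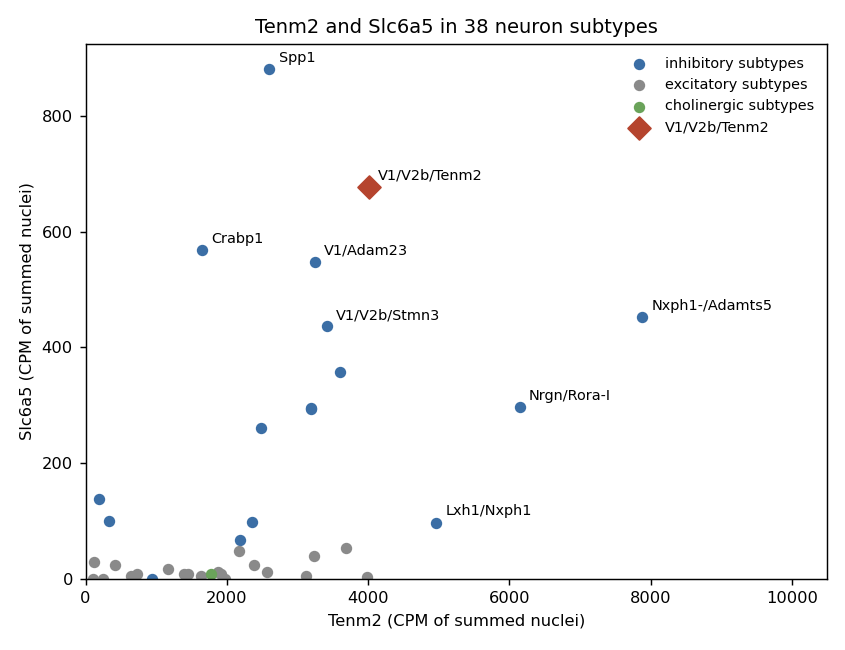
Level of Tenm2 (horizontal axis) and Slc6a5 (vertical axis) in CPM over the summed nuclei of each of 38 neuron subtypes, coloured by the class that their transmitter UMIs give (17 inhibitory, 20 excitatory and 1 cholinergic). V1/V2b/Tenm2 (diamond) ranks 2 for Slc6a5 and 4 for Tenm2.

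The genes with the largest level ratio over the other neurons describe the subtype further. They are given without a test, because the nuclei were clustered on these same counts. Of 2432 genes with a UMI in at least 20% of V1/V2b/Tenm2 nuclei, 271 were higher than in the other neurons in 6 of 6 samples, and 11 of these also had a ratio of at least 2. Of 2461 genes found in at least 20% of nuclei of V1/V2b/Tenm2 or of the other neurons, 11% were higher in 6 of 6 samples and 8.9% lower. Nearly all of these genes pass through V1/V2b/Tenm2, whose nuclei are deeper (median 2603 UMIs, against 1659 in the other neurons). The part of this filter in the balance of higher and lower genes was not tested. Slc6a5 led with a ratio of 3.79. Zmat4, which encodes a zinc finger protein, averaged 514 ± 98.7 CPM in V1/V2b/Tenm2 and 188 ± 13.4 CPM in the other neurons (SD, n = 6), a ratio of 2.73. Kcnab3, a beta subunit of Kv1 potassium channels, averaged 80.5 ± 16.8 CPM in V1/V2b/Tenm2 and 31.1 ± 3.89 CPM in the other neurons. Lgr5, a receptor for R-spondins, had a ratio of 2.28, with values of 84.8 to 329 CPM in V1/V2b/Tenm2 samples. Cntn6, an immunoglobulin-family adhesion molecule, ranged over samples between 1001 and 1593 CPM in V1/V2b/Tenm2 and between 575 and 732 CPM in the other neurons, and was found in 93.3% of V1/V2b/Tenm2 nuclei.

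Htr2c encodes the serotonin receptor 5-HT2C, which is known for raising the excitability of spinal neurons. It was found in 80.8% of V1/V2b/Tenm2 nuclei and ranged over samples between 1003 and 1524 CPM, against 541 to 743 CPM in the other neurons, a ratio of 2.07. It was also 1.49 times the level of V1/Adam23 and 1.03 times that of V1/V2b/Stmn3, and was above V1/V2b/Stmn3 in 4 of 6 samples. Of the receptors whose agonists the series names, Htr1a gave no UMI in the 193 nuclei and Drd1 gave 1. Both were rare in the other neurons too, found in 0.89% and 0.62% of nuclei, so a lower share in V1/V2b/Tenm2 was not shown.

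**Figure D3:**
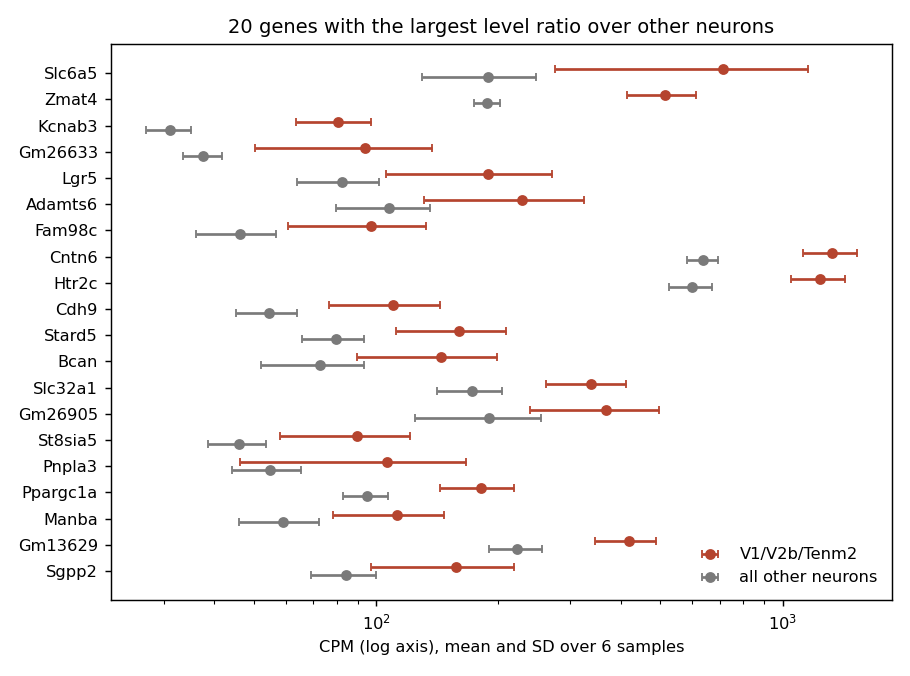
Level in CPM (log axis) of the 20 genes with the largest ratio of V1/V2b/Tenm2 over all other neurons, as mean and SD over 6 samples. Slc6a5 has the largest ratio (3.79), and Cntn6 and Htr2c have the highest levels.

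Among potassium channel and HCN genes, 22 were found in at least 20% of nuclei of V1/V2b/Tenm2 or of the other neurons. In V1/V2b/Tenm2 6 of them were higher in 6 of 6 samples while 6 were lower, against 11% and 8.9% over all genes. Kcnc1, which encodes a Kv3 channel used in fast spiking, had a ratio of 1.44, and Kcna2, an axonal Kv1 channel, had 1.78. Kcnc1 averaged 247 ± 50.4 CPM in V1/V2b/Tenm2 and 171 ± 21.0 CPM in the other neurons. The related Kv3 gene Kcnc2 went the other way, with 230 ± 71.0 CPM in V1/V2b/Tenm2 and 491 ± 43.4 CPM in the other neurons. Kcnd3 and Kcnt2 were lower too, at ratios of 0.28 and 0.45.

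Of 16 sodium and calcium channel genes, 4 were higher and 4 lower in 6 of 6 samples, against 11% and 8.9% over all genes. Scn1a and Scn8a, which encode the sodium channels Nav1.1 and Nav1.6, had ratios of 1.37 and 1.62. Scn3a, the sodium channel gene of immature neurons, was at 0.49. Cacna2d1, an auxiliary calcium channel subunit that binds gabapentin, had the smallest ratio of these 16 genes, with 68.0 ± 41.6 CPM in V1/V2b/Tenm2 and 732 ± 64.9 CPM in the other neurons. Its relative Cacna2d3 was higher instead, with 965 ± 166 CPM in V1/V2b/Tenm2 and 629 ± 58.9 CPM in the other neurons. Pvalb, which encodes the calcium buffer parvalbumin, was found in 16.6% of V1/V2b/Tenm2 nuclei and 6.40% of the other neurons, and was higher in 6 of 6 samples. Ppargc1a, a regulator of mitochondrial genes, had a ratio of 1.91, and Bcan, which encodes the matrix protein brevican, had 1.98.

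The balance varied between lists of adhesion and guidance genes. Of 18 cadherin and protocadherin genes 6 were higher and 1 lower in 6 of 6 samples. Of 7 neurexin, neuroligin, cerebellin and LRRTM-family genes 4 were higher and none lower. Of 9 teneurin and latrophilin genes 2 were higher and 1 lower, and of 13 axon guidance genes 1 was higher and 3 lower. Over all 2461 genes compared in this way, 11% were higher and 8.9% lower. Cdh18 averaged 2441 ± 163 CPM in V1/V2b/Tenm2 and 1596 ± 204 CPM in the other neurons. Nrxn3, a presynaptic neurexin, averaged 8638 ± 917 CPM in V1/V2b/Tenm2 and 4845 ± 585 CPM in the other neurons. Of 19 glutamate receptor genes 4 were higher and 7 lower. Gria1, an AMPA receptor subunit, had a ratio of 0.50, and Grm5 and Grm7, metabotropic receptors, had 0.74 and 0.72, while Gria3 had 1.47. None of 14 GABA and glycine receptor genes was higher in 6 of 6 samples, and Gabrg3 and the glycine receptor gene Glra3 were lower, at ratios of 0.66 and 0.41. Beside the shares over all genes (11% and 8.9%), 14 genes are too few to set this list apart. The main spinal glycine receptor gene Glra1 had a ratio of 0.98.

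V1/V2b/Tenm2 was also set against 2 other inhibitory subtypes, V1/V2b/Stmn3 and V1/Adam23, again without a test. Of genes found in at least 20% of nuclei of either subtype, 6.19% were higher and 3.77% lower than in V1/V2b/Stmn3 in 6 of 6 samples, and 5.35% were higher and 5.7% lower than in V1/Adam23. Over V1/V2b/Stmn3, Nppc, which encodes C-type natriuretic peptide, had a ratio of 3.84, L3mbtl4 4.29, and Hapln4, a link protein of the matrix around neurons, 2.77. St6galnac5, Meis2 and Zfhx3 were lower than in V1/V2b/Stmn3, at 0.20, 0.23 and 0.27. Over V1/Adam23, Dscaml1, Nppc, Zeb2 and Pde1a had ratios of 5.41, 5.37, 5.04 and 4.85. The calcium-binding gene Calb2 (0.12), the V1 clade gene Foxp2 (0.21), Spp1 (0.16) and Meis2 (0.25) were lower than in V1/Adam23. Nppc was thus higher in 6 of 6 samples than in both of these subtypes, and Meis2 and Zfhx3 were lower in 6 of 6 than in both.

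The comparison of TESS with CON asks what differed in these neurons after walking under stimulation. Each fold change is the log2 ratio TESS over CON from edgeR's quasi-likelihood test on counts summed per sample. The p-values were adjusted over all genes tested by Benjamini-Hochberg, and a gene was called at an adjusted p below 0.05. Of 1810 genes tested, 1 was called (0.0552%), and it was higher in TESS. No gene was called lower in TESS (0%). At an unadjusted p below 0.05, 63 genes were higher and 90 lower in TESS, 8.45% of those tested. DESeq2 called 0 genes in either direction, with 60 at an unadjusted p below 0.05 (3.31%). The groups did not overlap in 237 genes (13.1%), 139 higher (7.68%) and 98 lower (5.41%) in TESS. The median change over all genes tested was 0.00.

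The gene called was Slc6a5, the glycine transporter gene that also marks the subtype. Its level was 767, 1562 and 583 CPM in TESS 1 to 3, against 480, 331 and 561 CPM in CON 1 to 3. All TESS values lay above all CON values, with TESS 2 far above the rest and TESS 3 close to CON 3. Slc6a5 rose by 1.07 ± 0.24 (log2 fold change ± SE, adjusted p = 0.0454, edgeR), with means of 970 ± 520 CPM in TESS and 458 ± 117 CPM in CON (SD, n = 3 each). Without TESS 2 the change was 0.54 (adjusted p = 0.613), and without CON 2 it was 0.88 (adjusted p = 0.153), so the call rests on these samples. With the samples of batch 3 alone (TESS 1, CON 1 and CON 2) it was 0.88 (adjusted p = 0.989), and the call was lost there too. The gene lies at chr7:49910146-49963856 on the plus strand (GRCm38) and overlaps no other annotated gene.

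The shares of nuclei with a Slc6a5 UMI overlapped between the groups. They were 23 of 29, 27 of 37 and 17 of 28 in TESS samples, against 23 of 31, 20 of 34 and 26 of 34 in CON samples. The 3 nuclei with the most Slc6a5 UMIs held 24 of 65, 53 of 125 and 14 of 39 UMIs in TESS samples, against 13 of 51, 17 of 39 and 12 of 49 in CON samples, so these shares overlapped too. The largest count in a nucleus was 13, 21 and 8 in TESS and 5, 10 and 4 in CON. Slc6a5 was also higher in TESS in the other neurons, where it was 213, 290 and 196 CPM in TESS and 159, 132 and 142 CPM in CON (0.68 ± 0.15, adjusted p = 0.0227, edgeR). In V1/Adam23 the change was 0.83 ± 0.26 and in V1/V2b/Stmn3 0.39 ± 0.24, neither of which passed the test. The change in V1/V2b/Tenm2 minus that in the other neurons was 0.39 ± 0.21 (adjusted p = 0.998, edgeR interaction test), so a difference between them was not shown. TESS 2 was the highest sample in V1/V2b/Tenm2 and in the other neurons, which include V1/Adam23, while in V1/V2b/Stmn3 TESS 1 was the highest (580 CPM, against 495 CPM in TESS 2).

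The promoter of Slc6a5 is shown because it is the gene called and the leading gene of the subtype. It spans chr7:49910049-49910348 on the plus strand, 250 bases before and 50 after the transcript start (RefSeq, GRCm38.p6). Capitals mark a match to the AP-1 motif TGANTCA, the binding sequence of Fos and Jun proteins, searched on both strands.

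Slc6a5 promoter: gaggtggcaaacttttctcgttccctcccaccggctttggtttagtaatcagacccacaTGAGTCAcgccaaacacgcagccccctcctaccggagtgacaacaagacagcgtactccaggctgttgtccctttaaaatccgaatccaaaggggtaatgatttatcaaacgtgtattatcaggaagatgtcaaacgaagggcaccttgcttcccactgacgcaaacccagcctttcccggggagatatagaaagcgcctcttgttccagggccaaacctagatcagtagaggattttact

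The match covers bases 60 to 66 of this window, and 7.81% of 32851 promoters of the same length hold one. The CREB motif TGACGTCA, held by 1.79% of promoters, has no match in this window. The same window around a second annotated start of the gene, chr7:49911450-49911749, matched neither motif. These matches are letters in the reference, and binding was not measured.

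The other genes of the inhibitory transmitter list were not called. Slc32a1 was 354, 225 and 329 CPM in TESS and 367, 450 and 298 CPM in CON, with overlapping groups and a change of −0.36 ± 0.26 (adjusted p = 0.777, edgeR). Gad1 had 7 UMIs in TESS and 13 in CON, and Gad2 27 in TESS and 19 in CON, too few to be tested. Of 9 listed genes 5 were tested, with a median change of −0.07. Pax2 was 82.6, 125 and 44.8 CPM in TESS, against 188, 170 and 126 CPM in CON, and did not pass (−0.96 ± 0.40, adjusted p = 0.453, edgeR). Foxp2 had 12 UMIs in TESS and 3 in CON, below the filter.

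After Slc6a5 the smallest p toward higher levels belonged to Gabrb1, which encodes the beta1 subunit of GABA-A receptors and did not pass (0.98 ± 0.25, adjusted p = 0.0520, edgeR). Its level was 625, 562 and 508 CPM in TESS, against 236, 238 and 378 CPM in CON. The TESS values lay close together and above all CON values. In V1/V2b/Stmn3 Gabrb1 was 604, 584 and 708 CPM in TESS and 774, 720 and 735 CPM in CON, and in V1/Adam23 it was 197, 245 and 294 CPM in TESS and 113, 149 and 119 CPM in CON. In the annotation Gabrb1 overlaps 4 other genes, Gabra4 among them, and since counting by strand is not given its reads are uncertain in origin. Ntng1, which encodes the adhesion protein netrin-G1, had a change of 0.92 ± 0.27, and Aff4, a transcription elongation factor, 0.94 ± 0.28, with adjusted p of 0.154 and 0.169. The 11 oligodendrocyte markers summed to 637 to 807 CPM in TESS and 405 to 688 CPM in CON, with 10 of 11 detected and Sox10 at 0, and their part in these values was not tested.

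No gene was called lower in TESS, and the 5 with the smallest p did not pass, with an adjusted p of 0.0520 each (edgeR). Pcsk1n encodes proSAAS, an inhibitor of the prohormone convertase PC1/3. It was 1828, 1187 and 1524 CPM in TESS, against 2440, 2479 and 2200 CPM in CON, a change of −0.69 ± 0.17. The groups did not overlap, and in the other neurons the change was −0.25 ± 0.12 (adjusted p = 0.333, edgeR). Nrg3os, antisense to the neuregulin gene Nrg3, had −0.94 ± 0.24, and −0.66 ± 0.17 in the other neurons (adjusted p = 0.0563). Atp6ap2, an accessory subunit of the vacuolar proton pump, had −1.18 ± 0.30, and in the other neurons it was called lower in TESS, by −0.54 ± 0.12 (adjusted p = 0.0278). Emc7, a subunit of the membrane protein insertion complex, had −1.83 ± 0.47 (−0.51 ± 0.15 in the other neurons, adjusted p = 0.105), with 11 UMIs in TESS and 52 in CON. Ube3a, a ubiquitin ligase whose locus also holds the antisense transcript Snhg14, had −1.37 ± 0.35 with overlapping groups, and −0.51 ± 0.22 in the other neurons (adjusted p = 0.298). Pcsk1n and Eras overlap in the annotation, as do Nrg3os and Nrg3, and counting by strand is not given, so these reads cannot be assigned with certainty.

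**Figure D4:**
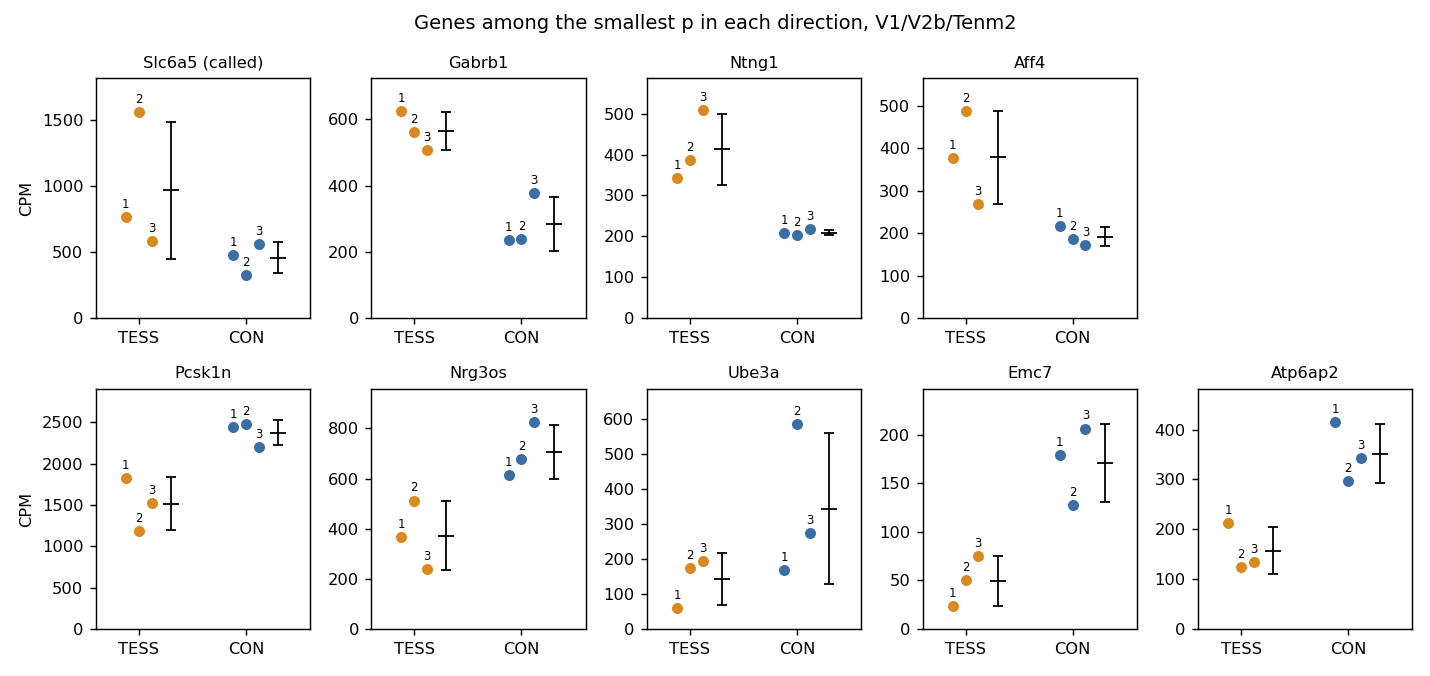
Level in CPM, in V1/V2b/Tenm2, of 4 genes among those with the smallest p toward higher levels in TESS (top) and the 5 with the smallest p toward lower levels (bottom). Points are samples, labelled with the replicate number, TESS left of CON, and each bar beside them is the mean and SD of 3 samples; only Slc6a5 was called, and its TESS 2 value (1562 CPM) stands far above the others.

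The tested members of the receptor, channel and adhesion lists gave no call. The median change was −0.02 for 12 GABA and glycine receptor genes, 0.03 for 18 glutamate receptor genes, −0.04 for 14 sodium and calcium channel genes and 0.15 for 20 potassium and HCN channel genes. It was −0.06 for 17 cadherin genes, 0.03 for 9 teneurin and latrophilin genes and 0.28 for 10 axon guidance genes. Apart from that of the axon guidance genes, each of these medians changed sign under at least 1 alternative processing. Tenm2 had a change of 0.03 ± 0.15 and Htr2c of 0.11 ± 0.19. The glycine synapse genes Glra1 and Glrb, receptor subunits, and Gphn, the scaffold gephyrin, had −0.40 ± 0.23, −0.50 ± 0.25 and −0.36 ± 0.18, none of which passed. Gphn was 1179, 1512 and 1076 CPM in TESS and 1611, 1528 and 1570 CPM in CON.

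Against V1/V2b/Stmn3, 1 of 2292 genes (0.0436%) had a TESS change that differed, by edgeR's interaction test with the sample as a block, and 112 (4.89%) had an unadjusted p below 0.05. It is the transcript listed as RP23-231J2.1, which matched no gene of the annotation used. Its level in V1/V2b/Tenm2 was 1215, 1025 and 807 CPM in TESS, against 669, 603 and 813 CPM in CON. In V1/V2b/Stmn3 it was 1160, 1638 and 1286 CPM in TESS, against 1590, 2210 and 1867 CPM in CON. The change was 0.52 ± 0.20 in V1/V2b/Tenm2 and −0.53 ± 0.18 in V1/V2b/Stmn3, neither called by itself, and the difference was 1.07 ± 0.24 (adjusted p = 0.0296). Without TESS 1, TESS 2 or CON 2 in turn, its adjusted p was 0.593, 0.179 and 0.800. Gabrb1 came next, with a difference of 1.31 ± 0.32 (adjusted p = 0.0694). Against all other neurons 0 of 8616 genes differed in their change (0%), with 373 at an unadjusted p below 0.05 (4.33%). Gabrb1 had the smallest p there, with a difference of 1.02 ± 0.23 (adjusted p = 0.110).

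Immediate early genes, which neurons switch on within minutes of activity, were too sparse in V1/V2b/Tenm2 for a test of any member. Of 39 listed genes 37 were in the table and 28 had a UMI in these nuclei. They summed to 83 UMIs in 94 TESS nuclei and 47 UMIs in 99 CON nuclei, although the TESS nuclei held fewer UMIs in all. Their summed level was 212, 587 and 269 CPM in TESS 1 to 3, against 179, 144 and 126 CPM in CON 1 to 3. All TESS values lay above all CON values, and TESS 2 was the highest. The difference of means was 1.07 (SE 0.453) on the scale log2(CPM + 10), 0.65 without TESS 2 and 0.38 inside batch 3. At 1000 UMIs per nucleus, the share of nuclei with a UMI of the list was 20.7%, 37.8% and 10.7% in TESS 1 to 3. It was 9.68%, 11.8% and 14.7% in CON 1 to 3, so the groups overlapped at equal depth. Pooled over samples, these were 23 of 94 TESS nuclei (24.5%) and 12 of 99 CON nuclei (12.1%). Of those 23, 14 came from TESS 2.

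Among single members, 16 had more UMIs in TESS and 11 had fewer. Per1, an early gene that is also part of the circadian clock, had 14 UMIs in TESS and 5 in CON. Fos had 7 in TESS and 1 in CON, Egr1 and Btg2 each 5 in TESS and 2 in CON, and Junb 5 in TESS and 0 in CON. Gadd45b went the other way, with 1 in TESS and 5 in CON. The other neurons had a difference of 0.81, with means of 359 CPM in TESS and 195 CPM in CON. Among 24 subtypes with at least 10 nuclei in every sample, V1/V2b/Tenm2 ranked 5, between Bnc2 (1.14) and Cdh3 (1.01), and the values ran over subtypes between −0.67 and 1.65 with a median of 0.86. These subtypes come from the same 6 samples.

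V1/V2b/Tenm2 took 3.95%, 3.45% and 3.98% of neurons in TESS samples and 2.60%, 3.11% and 2.75% in CON samples. Every TESS share lay above every CON share, with means of 3.79 ± 0.297% in TESS and 2.82 ± 0.263% in CON (SD, n = 3 each), a difference of 0.98 percentage points. The two-sided exact permutation test gave p = 0.1, the smallest value that 3 against 3 samples allow. Each single share had an exact 95% binomial interval that overlapped those of the other group, such as 2.66% to 5.62% for TESS 1 and 1.77% to 3.67% for CON 1. Neuron nuclei were also shallower in TESS 2 and TESS 3, with medians of 1307 and 1210 UMIs, against 1512 to 2104.5 UMIs in CON. In TESS 1 the median was 2130 UMIs, above every CON sample. The part of depth in the share was not tested.

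**Figure D5:**
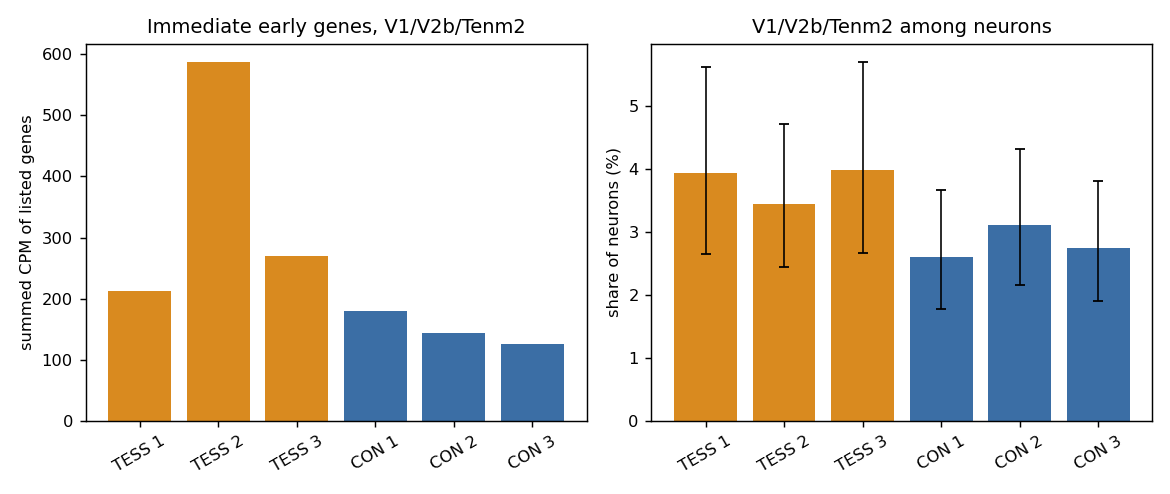
Left, summed CPM of the 37 immediate early genes in V1/V2b/Tenm2 by sample. Right, V1/V2b/Tenm2 as a percentage of neurons by sample with exact 95% binomial intervals; TESS samples stand above CON samples in both panels, with TESS 2 the highest on the left (587 CPM).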

How the data were processed

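The deposited table holds UMI counts of 19954 genes in 18514 nuclei, which the values show to be raw counts, and the deposited metadata give library, batch number, cell type, subtype and a mitochondrial fraction. The series text states 20484 nuclei and 6171 neurons. Per the submitters' processing notes, the tools were Cell Ranger 2.2.0 and Seurat 3 and the builds mm10 and GRCm38. Not given in the sources used here are the meaning of the batch numbers, filters on nuclei, doublet removal, and intron and strand settings. No nucleus was removed here and no doublet caller was run.

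Counts of V1/V2b/Tenm2, V1/V2b/Stmn3, V1/Adam23 and all other neurons were summed per sample. Gene tests used edgeR 4.0.16 in R 4.3.3 (filterByExpr with a minimum count of 10, quasi-likelihood F test, no batch term), and DESeq2 1.42.0 as an alternative. TMM factors came from the genes that passed the filter, with library sizes of all UMIs of the class. SEs were taken as the fold change over the root of its F statistic. CPM are unscaled by TMM. Interaction tests had the sample as a block. Gene tests were tested on simulated data. Shares used a two-sided exact permutation test (scipy 1.17.1), and nuclei were thinned to 1000 UMIs for shares of nuclei with a UMI. Subtypes were classed by the larger sum of inhibitory, excitatory or cholinergic transmitter UMIs. A count of 0 allows up to 3 counts. Genes were matched by symbol to GENCODE vM21 (19161 of 19954), and promoters come from RefSeq. RP23-231J2.1 was not matched.

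The members, the 33 gene lists and the tests were chosen with earlier results of these data known. Named are called genes of at least 10 CPM whose groups do not overlap, up to 15 per direction, filled to 5 by the smallest p where fewer pass, plus list members, leading genes by level ratio, and up to 5 interactions per direction. Alternatives were other size factors, filters, a batch term, batch 3 alone, a replicate block, equal numbers of nuclei, a minimum of 500 UMIs per nucleus, and leaving out each sample. Some genes that the rule names are not reported here.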

Additional observations from a re-analysis of the deposited data

Results flagged for a closer look

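RP23-231J2.1 had a TESS change that differed between V1/V2b/Tenm2 and V1/V2b/Stmn3, by 1.07 on the log2 scale (interaction test of edgeR, adjusted p = 0.0296). It was higher in TESS than in CON in V1/V2b/Tenm2 (0.52 ± 0.20) and lower in V1/V2b/Stmn3 (−0.53 ± 0.18), and in V1/V2b/Tenm2 the TESS and CON samples overlapped. Against all other neurons the difference was 0.46 ± 0.18 (adjusted p = 0.998).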

How the results depend on the processing

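The count of genes higher in TESS, 1 as reported, was 0 with a minimum count of 5, with 28 nuclei per sample and with DESeq2. It was 0 to 2 when each sample was left out in turn. With the replicate number as a block it was 0. Same-numbered samples did not deviate together, with correlations of −0.033, −0.028 and −0.014, so the numbers are not read as pairs. The count of genes lower in TESS, 0 as reported, was 0 to 7 when each sample was left out, with 7 without CON 1. Because TESS 2, TESS 3 and CON 3 are alone in their batches, a fit with a batch term draws its TESS effect from batch 3 only. The batch term and batch 3 alone are thus 1 contrast, of TESS 1 with CON 1 and CON 2. Slc6a5 changed by 0.87 with the batch term and 0.88 inside batch 3, and Ube3a by −2.73 and −2.72. The count of genes whose change differed against V1/V2b/Stmn3 was 0 to 3 and that against all other neurons 0 to 2 when each sample was left out. The share difference was 1.26 percentage points among inhibitory subtypes, and 0.865 to 1.15 among neurons when each sample was left out. The summed immediate early gene difference was 0.38 inside batch 3, and 0.654 to 1.37 when each sample was left out. The cause of these shifts was not tested. No called gene changed its direction. The list medians lie near 0, and 10 of 11 changed sign under at least 1 alternative: inhibitory transmitter genes (−0.07 as reported) ran over alternatives between −0.24 and 0.14, GABA and glycine receptors between −0.22 and 0.08, potassium and HCN channels between −0.01 and 0.31, teneurins and latrophilins between −0.07 and 0.21, and axon guidance genes, the exception, between 0.03 and 0.37. Among single gene fold changes 130 of the recomputed values stayed on the same side of the threshold, 11 crossed into it and 8, all of Slc6a5, fell out of it. The filter left 1810 genes to test, against 3783 with a minimum count of 5 and 14559 with no filter.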

Other observations

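Gadd45g had 4 UMIs in TESS and 6 in CON, and Fosl1 1 in TESS and 4 in CON, so the immediate early genes did not all have more UMIs in TESS. Il1rapl2, an adhesion gene related to interleukin receptors, was 165, 262 and 418 CPM in TESS and 198, 671 and 412 CPM in CON, with CON 2 above the rest. Its change minus that in all other neurons was −1.02 ± 0.25 (adjusted p = 0.284, edgeR interaction test), and without CON 1 the difference was −1.40 (adjusted p = 0.00108) and without TESS 3 it was −1.50 (adjusted p = 0.00397). Without CON 1 Malat1, an abundant nuclear non-coding RNA, was also called lower in TESS (−0.70 ± 0.12).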
